A study of Mus musculus with 20 samples.

Results

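The response of islets to pregnancy was examined in islets that had stayed in the pancreas of female mice. Of the 20 arrays of the study, the 8 arrays labelled as not transplanted were used: 4 from mice that were not pregnant (NP) and 4 from mice on day 12.5 of pregnancy (P12.5). Both groups came from females of the C57bl6/J background, and the labels give them no transplant, treatment or engineered allele. Their age is not given in the sources used here. The study set them beside grafts of islets from donors of either sex, placed under the kidney capsule of streptozotocin-treated female hosts, also NP or P12.5 (n = 3 for each donor sex and state). The labels call the samples biological replicates but name no animals, so the p-values reflect how far these samples spread, which may in part be technical, and the labels mark the 8 arrays as a reanalysis of an earlier data set.

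Islets of Langerhans are clusters of endocrine cells in the pancreas, most of them insulin-secreting beta cells in the mouse. In pregnancy, placental lactogen and prolactin bind the prolactin receptor on beta cells, which activates the kinase JAK2 and the transcription factors STAT5A and STAT5B. In rodents the beta cells then divide, store and release more insulin, and start to make serotonin. Mid-pregnancy in the mouse is known as a time of active beta cell division.

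Total RNA was hybridised to Affymetrix MoGene 1.0 ST arrays, which measure each transcript with a set of short probes. Levels are given on the log2 scale as deposited, rounded to 1 decimal, so that a difference of 1 is a doubling. Array medians lay between 5.9 and 6.0 and lower quartiles between 4.8 and 4.9, and changes of genes near the lower quartile are compressed. Pearson's r between islet arrays was 0.982 to 0.989 (taken over probe sets, which do not count as replicates). NP array 1 stood apart at the top of the scale, with a maximum of 13.4 against 14.5 in the other 7. The hormone transcripts Gcg, Iapp and Sst (somatostatin) were near the top of every array, while Ins2 lay lower, at 10.2 to 11. Gcg (glucagon) measured 12.8, 13.8, 13.8 and 13.8 in the NP arrays and 13.7 in each of the P12.5 arrays. Digestive enzyme transcripts of acinar cells were present too, and the mean level of 28 acinar markers ranged from 7.05 to 8.80 over the NP arrays and from 7.46 to 8.58 over the P12.5 arrays, so the 2 ranges overlapped.

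Far more genes were called higher than lower in pregnancy. A gene was called when its adjusted p in limma was below 0.05 and its fold change was at least 1.5. Of 19938 genes, 181 were called higher (0.908%) and 18 lower (0.0903%) at P12.5. The change was at least 2-fold for 48 of the genes that rose and for 3 of those that fell, and at least 4-fold for 5 that rose. The NP and P12.5 values did not overlap for any of the 181 or the 18, which the call rule nearly fixes, while over all genes 5.05% had no overlap with P12.5 higher and 1.97% with P12.5 lower. Of these calls, 128 and 7 held when each of the 8 arrays was left out in turn. Without NP array 1, 149 genes were called higher and 11 lower. In RNA from whole islets, a change in the share of cells of a type and a change in RNA per cell cannot be told apart.

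**Figure D1:**
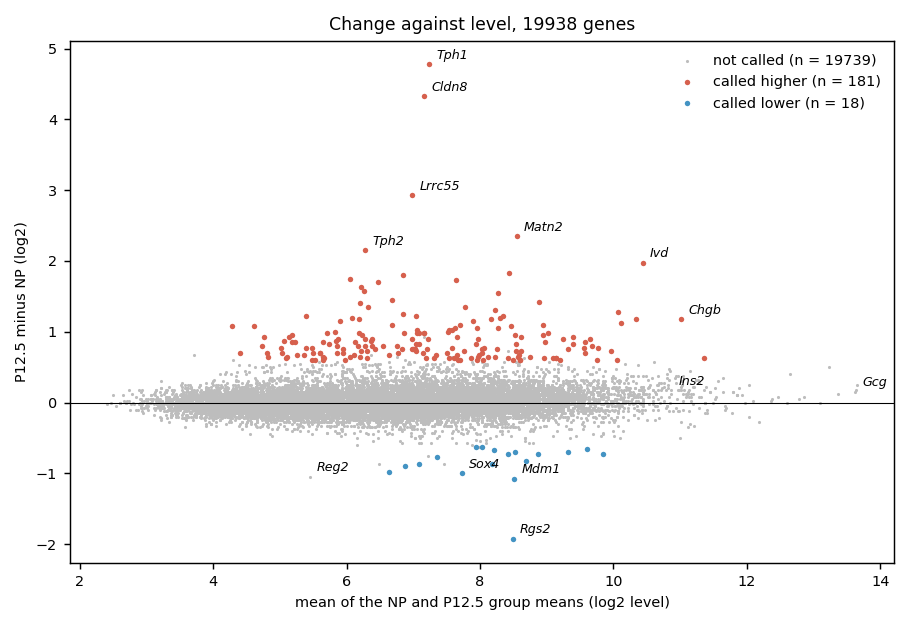
P12.5 minus NP on the log2 scale (vertical axis) against the mean of the group means (horizontal axis, log2 level) for 19938 genes. Red points are the 181 genes called higher, blue points the 18 called lower and grey points the other 19739. The rises reach 4.78 (Tph1), while the decrease of Rgs2 (-1.93) is the farthest below 0.

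The lactogen pathway showed its change in 2 feedback inhibitors. Cish, which encodes an inhibitor induced by STAT5, measured 8.4, 8.4, 8.2 and 7.7 in NP and 9.4, 9.7, 9.7 and 9.6 in P12.5 islets. Socs2, another member of the same family of cytokine signalling suppressors, measured 8.5, 8.4, 8.5 and 8.2 in NP and 9.4, 9.5, 9.7 and 9.4 in P12.5 islets. Each P12.5 array lay above each NP array for both genes. The increases were 1.43 ± 0.16 (SE, adjusted p = 0.00278) for Cish and 1.10 ± 0.10 (adjusted p = 0.000944) for Socs2, and both were among the calls that held without any 1 array. They were the 2 of 22 measured genes of the list of lactogen receptor and STAT5 signalling that were called higher (0.908% over all genes), 0 were called lower, and the median change of the list was -0.05. The signalling components themselves were not called. Stat5a changed by -0.15 ± 0.07 (adjusted p = 0.448), Stat5b by -0.28 ± 0.08 (adjusted p = 0.204) and Jak2 by -0.15 ± 0.09 (adjusted p = 0.558). Ghr, the growth hormone receptor, was 9.0, 9.0, 9.2 and 9.1 in NP and 8.9, 8.7, 8.9 and 8.9 in P12.5 islets (-0.23 ± 0.08, adjusted p = 0.299). Prlr was not analysed here. Other genes known as STAT5 targets in other settings, Pim1 (0.05) and Bcl6 (-0.08), were not called either.

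Promoter windows from RefSeq (build GRCm38.p6), from 250 bases before to 50 bases after the annotated start, were searched on both strands for TTCNNNGAA, the letters that STAT5 dimers recognise. The motif was present in a window of 9.01% of the 15563 genes with a window, and of 12.9% of the 140 called higher with one. No window of the 18 genes called lower held it. Of the 12 genes of the study's pregnancy signature, 6 had a window, and 2 of these (Cish and Ivd) held the motif. The Cish window is shown because 2 copies lie side by side at the annotated start of this STAT5-induced gene. Those of Prok1 and Ivd are shown with it, picked from the genes with the largest rise because they hold the motif. Capitals mark the motif, and a match describes letters only.
Cish (chr9:107296644-107296678, + strand): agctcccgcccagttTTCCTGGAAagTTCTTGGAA
Prok1 (chr3:107238716-107238780, - strand): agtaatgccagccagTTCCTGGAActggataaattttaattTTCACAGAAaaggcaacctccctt
Ivd (chr2:118861891-118861929, + strand): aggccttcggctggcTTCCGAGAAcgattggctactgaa

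The step of serotonin synthesis that commits tryptophan to the pathway was the strongest rise in these islets. Tph1, the tryptophan hydroxylase of tissues outside the brain, measured 4.7, 4.7, 4.8 and 5.2 in NP islets, about the lower quartile of the arrays, and 9.4, 9.6, 10.3 and 9.2 in P12.5 islets. Tph2, the form known from neurons, measured 5.2, 5.1, 5.3 and 5.2 in NP and 7.2, 7.2, 7.5 and 7.5 in P12.5 islets. Neither gene had overlapping groups, and the increases were 4.78 ± 0.22 (27.4-fold, adjusted p = 1.87e-05) and 2.15 ± 0.10 (4.44-fold, adjusted p = 1.72e-05). The remaining steps were not called. Ddc, which converts the product of these enzymes to serotonin, was 10, 10.1, 10.1 and 10.1 in NP and 10.3 in each P12.5 array (0.23 ± 0.06, adjusted p = 0.143). Slc18a1, a transporter that loads monoamines into vesicles, differed by 0.50 ± 0.12 (adjusted p = 0.107) and Slc6a4, which takes serotonin up from outside the cell, by 0.00 ± 0.09 (adjusted p = 1). The receptor gene Htr2b was 4.5 to 4.8 in NP and 4.5 to 4.9 in P12.5 islets, at the lower quartile, and its difference was 0.08 ± 0.10 (adjusted p = 0.868). Of 23 serotonin genes, 2 were called higher and 0 lower (0.908% and 0.0903% of all genes), and the median change was 0.

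Cldn8, a claudin of tight junctions, measured 4.9, 5.2, 4.8 and 5.1 in NP and 9.0, 9.5, 9.6 and 9.2 in P12.5 islets. It was the 1 of 20 claudin and tight junction genes that was called, with a rise of 4.33 ± 0.14 (20.04-fold, adjusted p = 2.71e-06), and the median of that list was -0.03. Lrrc55, an auxiliary subunit of BK potassium channels, measured 5.5, 5.6, 5.5 and 5.5 in NP and 8.2, 8.6, 8.5 and 8.5 in P12.5 islets (2.93 ± 0.09, 7.59-fold). It was likewise the 1 called gene among 33 genes of glucose sensing and exocytosis, whose median change was -0.03. Beside both counts, 0.908% of all genes were called higher and 0.0903% lower. Car8, a member of the carbonic anhydrase family without enzyme activity, measured 7.5, 7.4, 7.5 and 7.6 in NP and 9.0, 8.9, 9.2 and 9.1 in P12.5 islets (1.55 ± 0.08). Neb, the giant actin-binding protein of skeletal muscle sarcomeres, rose by 1.75 ± 0.08 from a low level of 5.1 to 5.3. Tmem255a, a transmembrane protein, rose by 1.83 ± 0.14 and the ring finger gene Lonrf3 by 1.70 ± 0.16.

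Secreted and matrix proteins included 4 called higher and 0 lower among 49 measured, against 0.908% and 0.0903% of all genes, with a median of -0.05. Matn2 (matrilin 2, a matrix protein) measured 7.3, 7.3, 7.2 and 7.7 in NP and 9.6, 9.7, 9.9 and 9.7 in P12.5 islets, an increase of 2.35 ± 0.12 (5.10-fold). Tnfrsf11b, which encodes the decoy receptor osteoprotegerin, measured 6.1, 5.6, 6.0 and 6.1 in NP and 7.5, 7.7, 8.0 and 7.8 in P12.5 islets (1.80 ± 0.14). The groups of neither gene overlapped. Prok1, a secreted peptide that acts on endocrine endothelium, rose by 1.45 ± 0.11 (5.8 to 6.2 in NP, 7.3 to 7.6 in P12.5 islets). Igfbp5, which binds insulin-like growth factors, rose by 1.00 ± 0.09 (6.9 to 7.1 in NP, 7.8 to 8.1 in P12.5 islets). Sftpd, a collectin best known from lung surfactant, rose by 1.58 ± 0.13. Tph1, Tph2, Cldn8, Matn2, Tnfrsf11b, Neb, Car8, Lonrf3, Cish, Ivd, Ehhadh and Gbp8 form the 12-gene signature that the study took from the islet response to pregnancy, so that their direction here is not independent evidence.

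**Figure D2:**
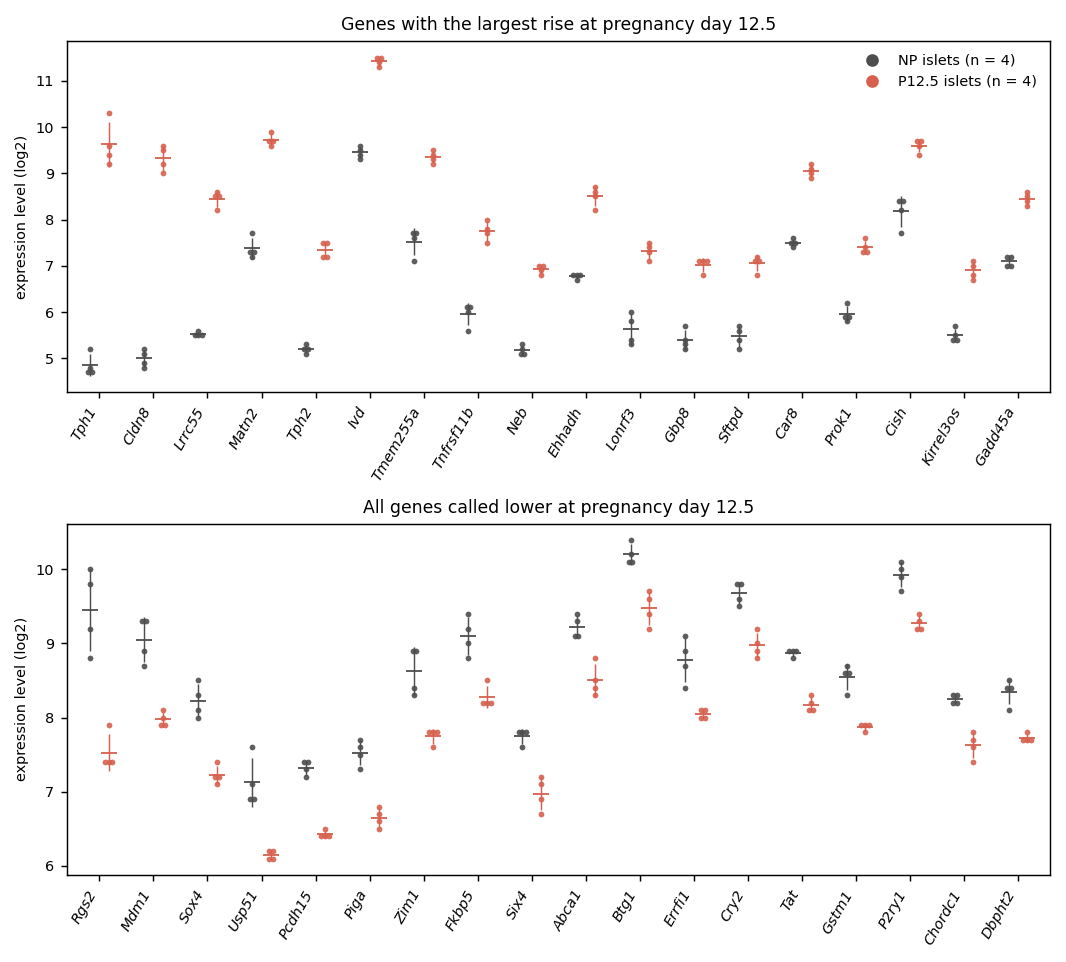
Expression levels (log2) of the 18 genes with the largest rise (top) and of all 18 genes called lower (bottom) in each of 4 NP arrays (grey) and 4 P12.5 arrays (red), with bars for the mean and SD. In no gene shown do the groups overlap, and Rgs2 has the widest NP spread (8.8 to 10) among the genes called lower.

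Many genes of cell division rose. Of 73 measured genes of mitosis and the spindle, 24 were called higher and 0 lower, against 0.908% and 0.0903% of all genes, and all 73 had a positive change (45.9% over all genes). The median change was 0.48, while the median over all genes was 0. The mean level of the 73 genes was 5.36, 5.40, 5.43 and 5.38 in the NP arrays and 5.95, 5.88, 5.901 and 5.82 in the P12.5 arrays, with no overlap. Top2a, the topoisomerase that untangles chromosomes in mitosis, measured 5.6, 5.8, 5.7 and 5.5 in NP and 7.2, 6.9, 7.0 and 6.9 in P12.5 islets (1.35 ± 0.10, adjusted p = 0.000303). With the mean of all its probe sets in place of the brightest, Top2a was no longer called. Mki67, the gene of the proliferation antigen Ki-67, measured 5.0, 5.3, 5.5 and 5.5 in NP and 6.4, 6.3, 6.3 and 6.3 in P12.5 islets (1.00 ± 0.11, adjusted p = 0.00315). All 4 P12.5 arrays were above the NP arrays for both genes. Ccna2 (cyclin A2) and the spindle assembly factor Tpx2 rose by 0.98 ± 0.08 each, the kinase gene Pbk by 1.20 ± 0.14 and the cytokinesis genes Ect2, Anln, Prc1 and Racgap1 by 0.88, 0.78, 0.78 and 0.75. Cdk1, the kinase that drives entry into mitosis, measured 5.6, 5.6, 5.8 and 5.7 in NP and 6.5, 6.2, 6.4 and 6.0 in P12.5 islets (0.60 ± 0.11, adjusted p = 0.0375), close to the fold minimum. The kinetochore and checkpoint genes Bub1, Bub1b, Mad2l1, Nuf2, Knstrn and Kntc1 were called higher too, with changes of 0.60 to 0.80. Other called members were Plk1, Kif11, Kif23, Ncapg2, Smc2, Melk, Hmmr and Dlgap5. Of the 24 calls, 16 held when each array was left out in turn. Those of Cdk1 and Mad2l1 held in 1 of the 8 fits that left out an array, those of Bub1b, Knstrn, Kif11 and Kif23 in 2, that of Smc2 in 3 and that of Nuf2 in 5. A fit with a block for same-numbered arrays (the replicate block) lost the calls of Mki67, Plk1, Pbk, Ncapg2, Melk, Hmmr, Dlgap5 and Smc2. It also lost those of Cdk1, Mad2l1, Bub1b, Knstrn, Kif11 and Kif23.

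Some DNA replication genes rose too. Of 41 measured, 8 were called higher and 0 lower (0.908% and 0.0903% of all genes), 39 had a positive change (45.9% of all genes) and the median was 0.30. Pcna, the sliding clamp of the replication polymerases, measured 7.6, 7.8, 7.8 and 7.5 in NP and 8.5, 8.4, 8.4 and 8.2 in P12.5 islets (0.70 ± 0.10, adjusted p = 0.00903). The helicase subunit genes Mcm2, Mcm3 and Mcm6 rose by 0.63, 0.80 and 0.70, Uhrf1, which couples DNA methylation to replication, by 0.83, Fen1, a flap endonuclease, by 0.68, Rrm2, a subunit of ribonucleotide reductase, by 0.65, and Dtl, which targets replication factors for degradation, by 0.70. The call of Mcm6 held in 1 of the 8 fits that left out an array, and those of Mcm2 and Dtl in 7. With the replicate block the calls of Pcna, Mcm3, Mcm6, Uhrf1, Fen1, Rrm2 and Dtl were lost, and that of Mcm2 was kept. For each of these 8 genes P12.5 array 1 held the highest level of the 8 arrays, and the mean level of the list was highest there as well (6.51, against 6.34 to 6.43 in the other P12.5 arrays and 6.02 to 6.10 in the NP arrays).

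Among the genes that set the start of the cycle, most changes were positive, but a single inhibitor was called. Of 33 cell-cycle entry and inhibitor genes, 1 was called higher and 0 lower (0.908% and 0.0903% of all genes). The median change was 0.15. The change was positive for 27 of the 33 (45.9% of all genes) and negative for 5. An unadjusted p below 0.05 in limma was found for 15, against 13.3% of all genes. The groups did not overlap for 13 genes with P12.5 higher (5.05% of all genes) and for 1 with P12.5 lower (1.97%). The mean level of the list was higher in each P12.5 array than in each NP array. The called gene was the CDK4 and CDK6 inhibitor Cdkn2c, which measured 5.8, 6.0, 5.9 and 5.8 in NP and 6.6, 6.8, 6.9 and 6.4 in P12.5 islets (0.80 ± 0.11, adjusted p = 0.00967). The cyclin D genes, which drive passage out of G1, changed by 0.23 (Ccnd1), 0.00 (Ccnd2) and -0.13 (Ccnd3), with adjusted p of 0.456, 1 and 0.631. Myc, a growth-promoting transcription factor, was 6.6, 6.9, 7.2 and 6.1 in NP and 7.7, 7.8, 7.7 and 7.3 in P12.5 islets. Its difference of 0.93 ± 0.22 was large but its NP arrays were scattered, and it was not called (adjusted p = 0.0958). Men1 (menin) differed by 0.28 ± 0.07 (adjusted p = 0.134) and Cdkn1b (p27) by -0.13 ± 0.07 (adjusted p = 0.549), neither called.

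The promoter windows of the mitosis genes often held TTTGAA, the letters of the cell-cycle homology region known from genes transcribed in G2 and mitosis. The letters were found on either strand in 40 of the 61 mitosis genes with a window (65.6%), in 15 of the 20 called ones with a window (75%) and in 17.3% of all genes with a window. Among DNA replication genes the share was 4 of 34 (11.8%). No match of TTTGAA overlapped one of TTCNNNGAA in the windows of genes called higher. The windows of Cdk1, Kif11 and Ncapg2 are shown, where a match (in capitals) lies within 40 bases before the annotated start.
Cdk1 (chr10:69352907-69352998, - strand): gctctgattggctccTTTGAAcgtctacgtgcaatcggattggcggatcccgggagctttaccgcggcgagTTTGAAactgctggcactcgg
Kif11 (chr19:37376348-37376383, + strand): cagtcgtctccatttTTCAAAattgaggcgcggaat
Ncapg2 (chr12:116405403-116405438, + strand): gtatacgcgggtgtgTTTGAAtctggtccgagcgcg

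**Figure D3:**
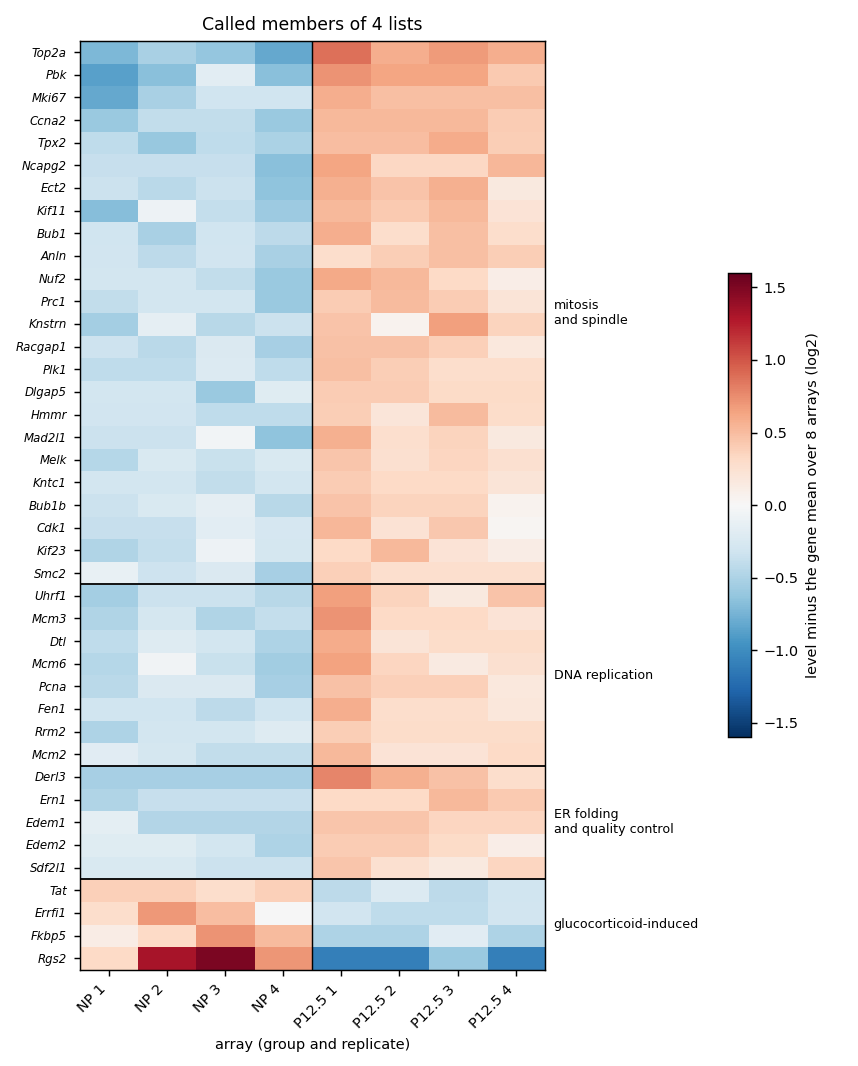
Level minus the mean over 8 arrays (log2, colour) of the 41 called members of 4 lists (rows) in the NP and P12.5 arrays (columns). The 24 mitosis, 8 replication and 5 ER genes are blue in NP and red in P12.5 arrays, and the 4 glucocorticoid-induced genes run the opposite way, with Rgs2 the strongest.

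In the early secretory pathway, some genes of protein quality control rose. Of 45 genes of endoplasmic reticulum (ER) folding and quality control, 5 were called higher and 0 lower (0.908% and 0.0903% of all genes), 43 had a positive change (45.9% of all genes) and the median was 0.23. Derl3, a component of the export of misfolded proteins from the ER, measured 7.1 in each NP array and 8.4, 8.2, 8.1 and 7.9 in P12.5 islets (1.05 ± 0.10, adjusted p = 0.00137). Ern1, the ER stress sensor IRE1 alpha, measured 9.2, 9.3, 9.3 and 9.3 in NP and 10, 10, 10.2 and 10.1 in P12.5 islets (0.80 ± 0.07, adjusted p = 0.000944). Neither gene had overlapping groups. Edem1 and Edem2, which send misfolded glycoproteins to degradation, rose by 0.78 ± 0.09 and 0.60 ± 0.10, and Sdf2l1, a chaperone cofactor, by 0.60 ± 0.08. Edem2 kept its call in 1 and Sdf2l1 in 4 of the 8 fits that left out an array. The abundant chaperone gene Hspa5 (BiP) differed by 0.20 ± 0.08 (adjusted p = 0.350), and Calr (calreticulin) passed the adjusted p (0.0352) but not the fold minimum, with 0.40. Xbp1, whose transcript IRE1 splices, differed by 0.30 (adjusted p = 0.141). The ER stress element, CCAAT and CCACG with 9 bases between them, was found in the windows of 9 of the 35 ER genes with a window (25.7%), against 0.135% of all genes with one. Of these 9, Derl3 was called. The stretches of Derl3 and Hspa5 are shown to set a called gene beside one that was not called, with the element in capitals (on the opposite strand in Derl3).
Derl3 (chr10:75893227-75893275, + strand): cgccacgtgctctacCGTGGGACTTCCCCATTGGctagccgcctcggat
Hspa5 (chr2:34772010-34772058, + strand): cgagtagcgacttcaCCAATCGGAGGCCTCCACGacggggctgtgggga

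Of the secretory granule genes, 2 were called higher. Chgb (chromogranin B, a granule matrix protein) measured 10.3, 10.5, 10.4 and 10.5 in NP and 11.6, 11.5, 11.7 and 11.6 in P12.5 islets, an increase of 1.18 ± 0.08 (2.26-fold, adjusted p = 0.000227). Pcsk1, the convertase that starts the processing of proinsulin, measured 10.9, 11.1, 11.1 and 11.1 in NP and 11.7, 11.6, 11.7 and 11.7 in P12.5 islets (0.63 ± 0.07, adjusted p = 0.00359). The groups did not overlap for either gene. Of the 19 measured genes on the list of prohormone processing and granules, 2 were called higher and 1 lower (0.908% and 0.0903% of all genes). The median of the list was 0. The 1 called lower was Dbpht2 (-0.63 ± 0.09), whose place in granules is not shown here. Its call held in 5 of the 8 fits that left out an array. Chga (chromogranin A), Cpe (carboxypeptidase E) and Scg2 (secretogranin 2) changed by 0.00, 0.05 and -0.13.

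The hormone genes were not called. Ins2 (insulin 2) measured 10.2, 10.9, 11 and 11 in NP and 10.9, 11, 11 and 10.9 in P12.5 islets, and Iapp (amylin) 12.8, 13.7, 13.8 and 13.8 in NP and 13.7, 13.8, 13.8 and 13.8 in P12.5 islets. NP array 1 was low for both, and the other arrays lay within 0.1 of each other. Iapp is near the top of the range of the arrays. Without NP array 1 the difference of Ins2 changed sign (0.18 with it, -0.017 without it). Ins1 was not analysed here. Of 24 islet transcription factors, 0 were called by limma, close to the share of all genes called (0.908% higher and 0.0903% lower). An unadjusted p below 0.05 was found for 9 of the 24, against 13.3% of all genes, with 10 changes above and 11 below 0 and a median of 0. Mnx1, a homeobox factor of beta cells, passed the adjusted p (0.0368) but not the fold minimum (0.50 ± 0.09), and Rfx6 differed by -0.38 ± 0.09 (adjusted p = 0.0891). Pdx1 differed by 0.25 and Mafa by 0.43, with adjusted p of 0.162 and 0.211. Of 27 genes that beta cells keep low, 0 were called, and their changes lay between -0.28 and 0.18. Among 26 hormone and growth factor receptors 0 were called, and Esr1 (estrogen receptor alpha) passed the adjusted p (0.0318) but not the fold minimum (0.43 ± 0.08).

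Among metabolic genes, single enzymes rose while the medians of their lists stayed near 0. Beside the counts below, 0.908% of all genes were called higher and 0.0903% lower. Ivd, an enzyme of leucine breakdown, measured 9.5, 9.4, 9.3 and 9.6 in NP and 11.3, 11.4, 11.5 and 11.5 in P12.5 islets (1.98 ± 0.09, 3.93-fold). Ehhadh, an enzyme of peroxisomal fatty acid oxidation, measured 6.8, 6.8, 6.8 and 6.7 in NP and 8.2, 8.5, 8.7 and 8.6 in P12.5 islets (1.73 ± 0.11). The P12.5 arrays were above the NP arrays for both genes, which were the 2 called among 32 genes that oxidise fatty acids or break down branched-chain amino acids (median 0.08). Ogdhl, a homologue of the E1 subunit of 2-oxoglutarate dehydrogenase, rose by 1.28 ± 0.10, and Gatm, the first enzyme of creatine synthesis, by 0.98 ± 0.11. In cholesterol synthesis and uptake 1 of 22 genes was called, Dhcr7, which catalyses the last step of the pathway (7.1 to 7.5 in NP and 8.4 to 8.5 in P12.5 islets, 1.15 ± 0.09). In fatty acid and triglyceride synthesis 2 of 23 were called, the desaturase Fads1 (0.65 ± 0.10) and the acetyl-CoA synthetase Acss2 (0.60 ± 0.07), with a median of -0.03, and these calls held in 3 and 5 of the 8 fits that left out an array. Nupr1, a small stress-induced chromatin protein, rose by 1.03 ± 0.12 and was with Gatm the 2 called of 35 genes of the ATF4 and amino acid supply list (median 0.13).

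Some small gene families, which were chosen for their values in these arrays, had several members among the risers. Over all genes 0.908% were called higher, and a larger share in these families follows in part from that choice. Of 5 measured flavin-containing monooxygenases, which oxidise amines and sulphides, Fmo1 rose by 1.23 ± 0.09, Fmo4 by 1.18 ± 0.10 and Fmo2 by 0.90 ± 0.07. Of 16 carbonic anhydrase genes, Car15 (1.08 ± 0.12) and Car5b (0.93 ± 0.10) rose besides Car8. The change was negative for 8 of the 16, and the family median was -0.0125. B3galnt1 (1.20 ± 0.10), B3galt1 (0.68) and B3galt5 (0.63) rose among 7 genes of beta-1,3-linked sugar transfer, the calls of B3galt1 and B3galt5 holding in 1 and 2 of the 8 fits that left out an array. In the stress-induced Gadd45 family, Gadd45a measured 7.2, 7.0, 7.2 and 7.0 in NP and 8.4, 8.3, 8.5 and 8.6 in P12.5 islets (1.35 ± 0.09), Gadd45g rose by 0.63 ± 0.10 (held in 3 of the 8 fits), and Gadd45b differed by -0.03 (adjusted p = 0.991).

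**Figure D4:**
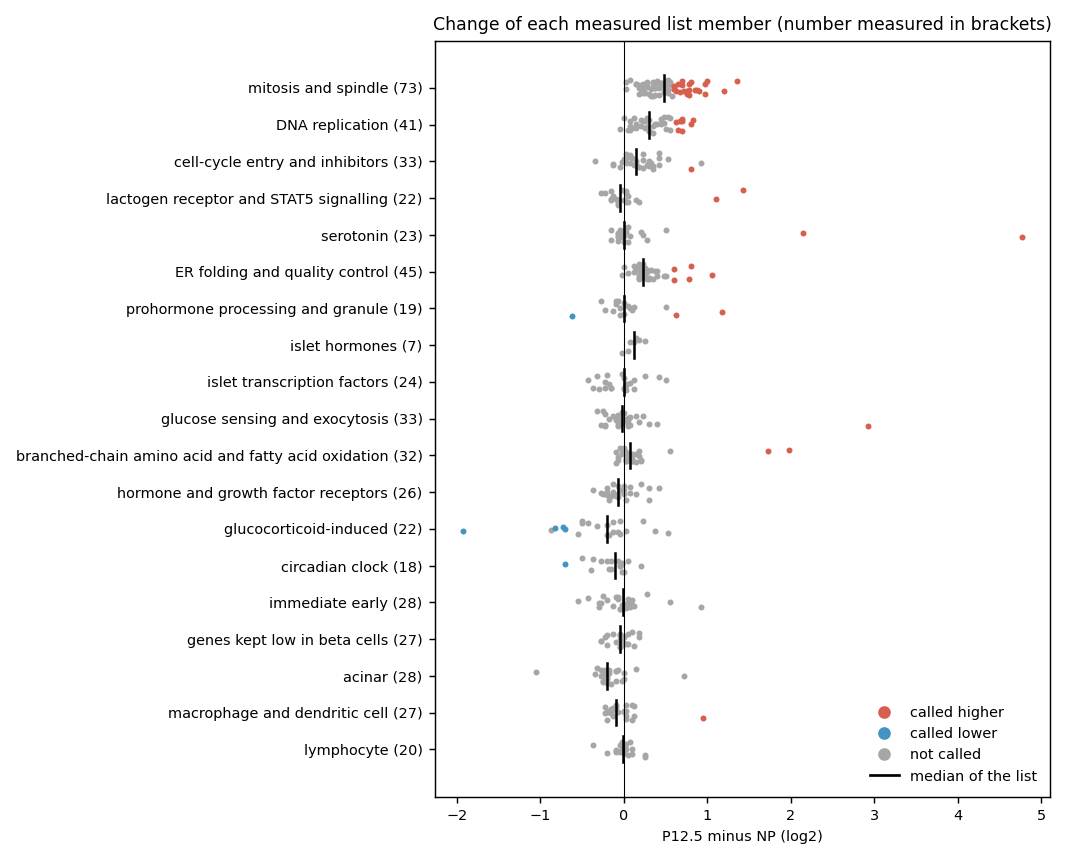
P12.5 minus NP (log2) of each measured member of 19 lists (points, red called higher, blue called lower, grey not called), with a black bar at the median of each list. The medians of mitosis (0.48), DNA replication (0.30) and ER folding (0.23) lie farthest above 0, and those of the glucocorticoid-induced and acinar lists (-0.20 each) farthest below.

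Of the 18 genes that fell, 4 belonged to the list of glucocorticoid-induced genes. Rgs2, a regulator of G-protein signalling, measured 8.8, 9.8, 10 and 9.2 in NP and 7.4, 7.4, 7.9 and 7.4 in P12.5 islets. Its NP arrays were widely spread, yet the groups did not overlap, and the decrease of 1.93 ± 0.25 (3.80-fold lower, adjusted p = 0.00636) held when each array was left out in turn. Tat (tyrosine aminotransferase) measured 8.9, 8.9, 8.8 and 8.9 in NP and 8.1, 8.3, 8.1 and 8.2 in P12.5 islets (-0.70 ± 0.07, adjusted p = 0.00208). Fkbp5, a cochaperone of the glucocorticoid receptor, measured 8.8, 9.0, 9.4 and 9.2 in NP and 8.2, 8.2, 8.5 and 8.2 in P12.5 islets (-0.83 ± 0.13, adjusted p = 0.0181), and Errfi1, an inhibitor of the EGF receptor, fell by 0.73 (SE 0.14, adjusted p = 0.0368). The calls of Fkbp5 and Errfi1 held in 3 and 1 of the 8 fits that left out an array. These were the 4 called lower of 22 glucocorticoid-induced genes, against 0.0903% of all genes, with 0 called higher. Changes were negative for 18 of the 22 (45.2% of all genes), with a median of -0.20. Other members were not called: Tsc22d3 (GILZ) differed by -0.20 (adjusted p = 0.473), Sgk1 by -0.13 (adjusted p = 0.729), and the metallothionein genes Mt1 and Mt2 by 0.38 and 0.53. The receptor gene itself, Nr3c1, differed by -0.25 (adjusted p = 0.222).

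Cry2, a repressor of the circadian clock, was 9.5, 9.8, 9.8 and 9.6 in NP and 8.8, 9.0, 9.2 and 8.9 in P12.5 islets (-0.70 ± 0.11, adjusted p = 0.0148). It was the 1 called of 18 clock genes, against 0.0903% of all genes called lower. Of the 18, 15 had a negative change (45.2% of all genes), with a median of -0.11. Per1, which is both a clock gene and induced by glucocorticoids, measured 7.8, 7.8, 7.8 and 7.9 in NP and 7.1, 7.4, 7.3 and 7.5 in P12.5 islets, passed the adjusted p (0.0346) and missed the fold minimum (-0.50 ± 0.09). Dbp and Nr1d1, whose levels swing widely over the day, differed by -0.05 and -0.38 (adjusted p = 0.901 and 0.222). The hour of islet collection is not given in the sources used here. Sox4, a transcription factor of endocrine progenitors, measured 8.0, 8.3, 8.5 and 8.1 in NP and 7.2, 7.4, 7.2 and 7.1 in P12.5 islets (-1.0 ± 0.12, adjusted p = 0.00371). Mdm1, a centriole protein, fell by 1.08 (SE 0.14), the antiproliferative gene Btg1 by 0.73 (SE 0.12), the cholesterol exporter Abca1 by 0.73 (SE 0.12), the purinergic receptor P2ry1 by 0.65 (SE 0.10) and the homeobox gene Six4 by 0.78 (SE 0.11). Pcdh15 (protocadherin 15) fell by 0.90 (SE 0.07), a call that was lost with the mean of all its probe sets. Gstm1, Piga, Zim1, Usp51 and Chordc1 made up the remainder of the 18. The calls of Btg1, Abca1 and Zim1 held in 2 of the 8 fits that left out an array, that of Cry2 in 4, those of P2ry1, Usp51 and Chordc1 in 6 and that of Six4 in 7.

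Markers of other cell types were counted in the same way. With 0.908% of all genes called higher and 0.0903% lower, a count of 0 in lists of this length is near the share of all genes. Of 28 acinar markers 0 were called, 24 had a negative change (45.2% of all genes) and the median was -0.20. Cpa1 (carboxypeptidase A1) measured 11.4, 11.8, 9.6 and 11.6 in NP and 10.2, 11.5, 10.6 and 11.7 in P12.5 islets, so that the spread within each group exceeded the difference between them (-0.10 ± 0.50). Reg2 (-1.05 ± 0.52, adjusted p = 0.480) had the widest difference of that list and was not called. A positive change was found for 2 of the 28. The largest of these was that of Bhlha15 (0.73 ± 0.19, adjusted p = 0.125), with 7.6 to 8.5 in NP and 8.6 to 8.9 in P12.5 islets. It did not overlap between the groups but was not called either. Of 27 macrophage and dendritic cell markers 1 was called. C1qa, a subunit of complement C1q, measured 8.4, 8.8, 8.5 and 8.2 in NP and 9.3, 9.4, 9.5 and 9.5 in P12.5 islets (0.95 ± 0.12, adjusted p = 0.00597). The genes of its partner subunits differed by 0.03 (C1qb) and 0.00 (C1qc), and the mean level of the 27 markers was 6.33 to 6.54 in NP and 6.33 to 6.46 in P12.5 islets. Gbp8, an interferon-induced GTPase, was the 1 called of 26 interferon-induced genes, with 5.7, 5.4, 5.3 and 5.2 in NP and 6.8, 7.1, 7.1 and 7.1 in P12.5 islets (1.63 ± 0.12, list median 0.08). Outside that list, Gbp11 (0.95 ± 0.11) of the same family and Isg20 (0.63 ± 0.07), another interferon-induced gene, were called higher too, both chosen after their values were seen. Of 21 endothelial, 25 fibroblast and pericyte, 16 duct, 20 lymphocyte and 9 Schwann and neuronal markers 0 were called. Cd96, a receptor of T and natural killer cells outside the lymphocyte list and also chosen after its value was seen, was called higher (0.65 ± 0.13), a call that held in 1 of the 8 fits that left out an array. The keratin gene Krt18 passed the adjusted p (0.00567) but not the fold minimum (0.58 ± 0.07).

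The islet calls were set beside the change in grafts, whose 12 arrays the islet comparison did not use. Of the 181 genes called higher in islets, 171 (94.5%) had a positive change in grafts of female donors and 158 (87.3%) in grafts of male donors, against 52.5% and 48.1% of all genes. All 18 genes called lower had a negative change in both, against 42.0% and 46.5% of all genes. Of the 181 genes, 60 were called higher in female and 32 in male grafts (0.717% and 0.306% of all genes), 30 of them in both. Of the 18, 5 and 4 were called lower (0.451% of all genes in each). Rgs2 fell by 1.17 in female and 1.4 in male grafts. The graft calls rest on 3 arrays a group and depend on single arrays, falling from 602 probe sets to 48 in female grafts without P12.5 replicate 2 and from 331 to 46 in male grafts without NP replicate 2.

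The difference between the islet and the graft change was tested as well. Against female grafts, 2 genes differed (0.0100%), Bloc1s3 and Ppp1r14b, and neither was called in islets, so that 0 of the 199 called islet genes differed in limma. Against male grafts, 12 of the 181 genes differed, against 0.391% of all genes called in that direction, and 0 of the 18, against 0.0802% in theirs. The 181 were chosen for their rise in the same islet arrays that enter this difference, so a share above that of all genes follows in part from the choice and nothing is read from it. The count of 12 became 3 without P12.5 male graft replicate 3, 4 without NP male graft replicate 2, 1 with the replicate block and 24 with array medians subtracted. Leaving out 1 islet array gave 7 to 10. Gbp8 differed most among them, with 1.63 in islets and 0.20 in male grafts (difference 1.43 ± 0.18, adjusted p = 0.00492). Its mean level was 5.4 in NP and 7.03 in P12.5 islets (n = 4), while male grafts had means of 7.6 without and 7.8 with pregnancy (n = 3), both above the P12.5 islets. In female grafts the means were 6.93 without and 7.87 with pregnancy (n = 3), so a level above that of NP islets was not particular to male donors. H1f5 (difference 1.25) and D17H6S56E-5 (difference 1.12) came next. Of the replication genes, Uhrf1 changed by -0.17, Mcm3 by -0.03 and Pcna by -0.10 in male grafts, and the differences from islets were 0.99, 0.83 and 0.80. The others were Gadd45a, Dipk1a, Cmtm6, Arhgap11a, Spag5 and Sema4a. Igfbp5 and Fmo1 rose in islets and changed by 0.03 each in female grafts, but their differences from islets did not pass (adjusted p = 0.403 and 0.184). Islets and grafts also differ in array set, in transplantation and in the streptozotocin treatment of the hosts, which cannot be told apart here.

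**Figure D5:**
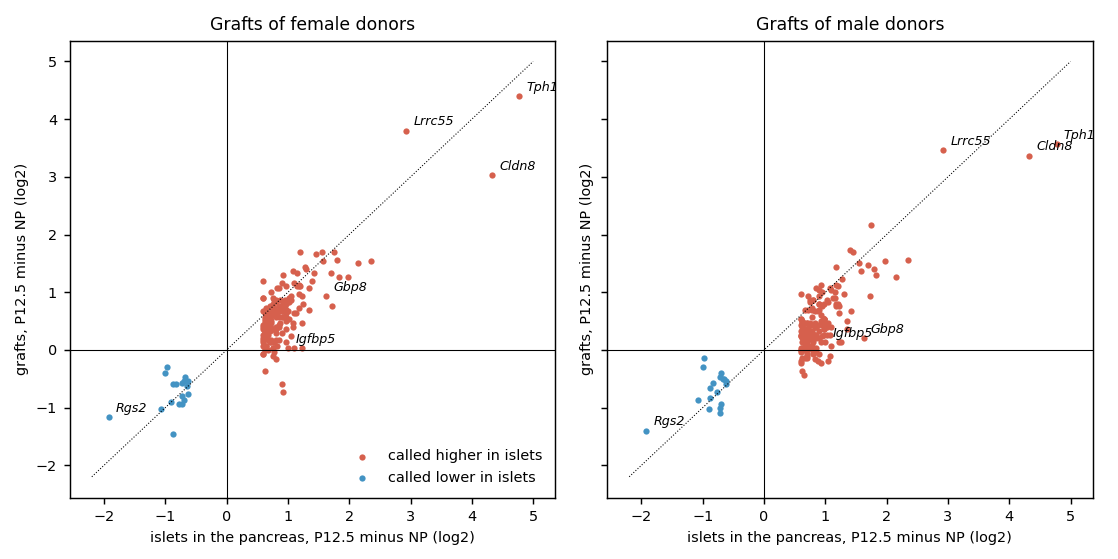
P12.5 minus NP (log2) in grafts of female (left) and male donors (right) against that in islets of the pancreas, for the 181 genes called higher (red) and 18 called lower (blue) in islets. The dotted line marks equal change. Most red points lie above 0 and below the line, and all blue points lie below 0.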

How the data were processed

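The authors obtained the deposited log2 levels by robust multichip analysis of the raw arrays (aroma.affymetrix), which includes background adjustment, quantile normalization and a summary per probe set. Values are rounded to 1 decimal. Of 35511 probe sets, the platform annotation gives 21789 a single gene symbol, 1621 several and 12101 none. Each gene was represented by 1 probe set, the brightest on average over 20 arrays among those with that symbol alone. The number of arrays limits the precision, and the median SE of an islet change was 0.0896.

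P12.5 and NP islets were compared with limma 3.58.1 in R 4.3.3 (lmFit and eBayes on the 8 arrays, no covariate), with two-sided p-values adjusted by the Benjamini-Hochberg method over the 35511 probe sets and calls at an adjusted p below 0.05 and a fold of at least 1.5. This called 218 probe sets higher and 39 lower, of which 17 and 21 carry no symbol. Grafts were fitted on their 12 arrays and differences between islets and grafts on all 20. Scripts were tested on simulated data.

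Members and lists (33, from textbook knowledge, and 5 families added after the values were seen) were chosen with earlier results of these data known. The 122 named genes were the signature, the 30 largest rises, the genes called lower, called list members, and the hormone and receptor genes. They also held the 2 members with the largest t of each list without calls. Some of the 122 are not described in the text, among them Kirrel3os, Dnah8 and Hsbp1 (rises of 1.40, 1.23 and 1.18). Other genes in the text were chosen after their values were seen. Alternatives were a filter on dim probe sets, renewed scaling, fold minimums, array weights, trend and robust eBayes, all 20 arrays, the mean of a gene's probe sets, a replicate block and leaving out each array.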

Additional observations from a re-analysis of the deposited data

Results flagged for a closer look

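Within the 4 arrays of a group, the highest or lowest array was checked for a gap to the others that exceeded Dixon's 95% critical value for 4 samples. Of 244 combinations of 122 named genes and 2 groups, 50 had such an array, and 25 of these gaps were 0.1, a single step of the rounding. Chance marks about 1 in 20 groups, and the rounding of the values to 1 decimal adds to the count.

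The gaps of 4 hormone genes were among the widest, all in NP array 1: Gcg (12.8 against 13.8 for the nearest array), Iapp (12.8 against 13.7), Sst (12.7 against 13.5) and Ins2 (10.2 against 10.9). With gaps above 0.1, the NP arrays that stood apart, each given with the nearest other array, were those of Acss2 (7.6 against 7.8), B3galnt1 (8.0 against 7.6), Bcl2l11 (6.7 against 6.9), Edem1 (9.4 against 9.1), Gnb1l (7.2 against 7.9, a gap as wide as that of Ins2), Krt18 (8.9 against 8.7), Lyve1 (6.8 against 7.1), Ncapg2 (5.2 against 5.5), Pcsk1 (10.9 against 11.1), Plk1 (6.1 against 5.9), Six4 (7.6 against 7.8) and Tmem255a (7.1 against 7.6). Among P12.5 islets they were those of Cd79a (5.5 against 5.0), Fkbp5 (8.5 against 8.2), Gbp8 (6.8 against 7.1), Ghr (8.7 against 8.9), Igfbp5 (7.8 against 8.1), Rfx6 (9.2 against 9.4), Rgs2 (7.9 against 7.4), Trp53inp1 (8.2 against 8.6) and Zim1 (7.6 against 7.8). A gap of 0.1 was found in NP islets for D17H6S56E-5 (6.3 against 6.2), Ehhadh (6.7 against 6.8), Ern1 (9.2 against 9.3), Fen1 (5.7 against 5.8), Jun (6.6 against 6.7), Kntc1 (4.7 against 4.8), Lrrc55 (5.6 against 5.5), Pparg (6.4 against 6.5), Tat (8.8 against 8.9) and Wipi1 (7.5 against 7.6), and in P12.5 islets for Ccna2 (6.6 against 6.7), Dbpht2 (7.8 against 7.7), Dhcr7 (8.4 against 8.5), Gstm1 (7.8 against 7.9), Iapp (13.7 against 13.8), Igf2r (8.9 against 9.0), Krt18 (9.4 against 9.3), Mki67 (6.4 against 6.3), Ncam1 (8.2 against 8.3), Pcdh15 (6.5 against 6.4), Pcsk1 (11.6 against 11.7), Ptprb (7.1 against 7.2), Rrm2 (6.6 against 6.5), Smc2 (5.9 against 5.8) and Sst (13.5 against 13.4).

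The pregnancy change of 7 named genes differed between islets and grafts of male donors by the test of the difference in limma. The islet change exceeded the male graft change by 1.43 for Gbp8, 1.12 for D17H6S56E-5, 0.99 for Uhrf1, 0.98 for Gadd45a, 0.88 for the natural killer cell receptor gene Ncr1, 0.83 for Mcm3 and 0.80 for Pcna. Ncr1 was not called in islets (0.25 ± 0.12).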

How the results depend on the processing

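Of the 122 named genes, which were chosen by the rules given above, 93 were called. All 93 kept their direction under each alternative in which they were tested, and 43 kept their call under each of these. Called genes in the text outside the 122 were followed only through the leaving out of arrays. The filters on dim probe sets left 91 of the 93 to be tested with the lower quartile as the limit and 73 with the median. A gene that a filter removed was not counted as lost. The number of genes called higher (181) ranged from 146 to 190 under other scalings, filters, weights and fits, apart from the fold minimum, the replicate block and the leaving out of arrays given next. Without a fold minimum 326 genes were called higher and 57 lower, and with a minimum of 2-fold 48 and 3. Fitting all 20 arrays called 10 lower. Leaving out each array in turn gave 143 to 181 genes higher and 11 to 27 lower, the 11 without NP replicate 1. The signs of the hormone genes that were not called turned: with renewed quantile normalization Gcg and Ppy were at -0.034 and Sst at -0.058, without NP replicate 1 Gcg was at -0.10, Ins2 at -0.017, Ppy at -0.033 and Sst at -0.075, and without NP replicate 4 Ppy was at -0.033. Leaving out each array in turn, Gcg ranged from -0.10 to 0.23, Ins2 from -0.017 to 0.25, Ppy from -0.033 to 0.20 and Sst from -0.075 to 0.19.

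Graft counts moved more. Leaving out each array in turn gave 48 to 260 called probe sets for female grafts (602 with all arrays), 46 to 479 for male grafts (331), 1 to 15 for islets against female grafts (18) and 75 to 455 for islets against male grafts (215). With array medians subtracted the counts were 542 for male grafts and 10 and 543 for the 2 differences from islets, and renewed quantile normalization gave 32 for islets against female grafts. The cause was not tested.

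The deviations of same-numbered NP and P12.5 islet arrays from their group means had r of -0.031, 0.11, -0.0085 and 0.23. Differently numbered pairs had r of -0.17 to 0.20, so the pair numbered 4 was the highest. Whether a number marks a shared batch is not settled by these values, and the fit without the block was kept as the main one. With the replicate block, 109 genes were called higher and 11 lower, and the called probe sets were 20 for female grafts, 7 for male grafts, 0 for islets against female grafts and 30 for islets against male grafts. Of the 93 named called genes, 59 kept their call with the block and 34 lost it. Many of those lost are mitosis and replication genes. Outside these lists, Cish, Pcsk1, Nupr1 and C1qa were among those that lost it.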

Other observations

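Several genes of transport and signalling rose in islets without belonging to a list. They were chosen after their values were seen. Slc6a8, the creatine transporter, measured 6.5, 6.6, 6.6 and 6.6 in NP and 7.5, 7.6, 7.6 and 7.5 in P12.5 islets (0.98 ± 0.07), beside the creatine synthesis gene Gatm (0.98 ± 0.11). Slc2a13, a myo-inositol transporter, rose by 1.18 ± 0.12, the sugar transporter gene Slc50a1 by 1.13 ± 0.10, and Slc17a9, which loads nucleotides into vesicles, by 0.70 ± 0.08. Gabbr2, a subunit of the GABA-B receptor, measured 8.2, 8.1, 8.2 and 8.1 in NP and 9.2, 9.2, 9.1 and 8.8 in P12.5 islets (0.93 ± 0.10). Acvr1c, the activin receptor ALK7, rose by 0.80 ± 0.11, the potassium channel gene Kcnk10 by 0.85 ± 0.09, and Gpr119, a lipid receptor of beta cells, by 0.65 ± 0.10. The call of Gpr119 held in 2 of the 8 fits that left out an array.

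Gcdh and Sugct, which act on glutaryl groups in lysine and tryptophan breakdown, rose by 0.75 ± 0.08 and 0.63 ± 0.09, and Pecr, a peroxisomal reductase, by 0.68 ± 0.09. Of 15 measured genes of lysine and tryptophan breakdown, a family added after the values were seen, 2 were called higher (0.908% of all genes). The family median was 0.05, and 1 of the 2 calls held when each array was left out in turn. In the secretory pathway Fkbp11, a prolyl isomerase of the ER, measured 6.9, 6.8, 6.7 and 6.7 in NP and 7.7, 7.7, 7.6 and 7.7 in P12.5 islets (0.90 ± 0.07), and Rab3d, a small GTPase of secretory vesicles, rose by 0.60 ± 0.07. Among genes of chromatin and the cell cycle outside the lists, the histone chaperone gene Asf1b rose by 0.98 ± 0.11, Stmn1 (stathmin, which destabilises microtubules) by 0.93 ± 0.12, and Tcf19 by 0.75 ± 0.12.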
